A study of Homo sapiens with 12 samples.

Results

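The data compare RNA of the cytoplasmic-nuclear (CN) fraction between 2 lines of HEK293T, an immortalised human cell line of embryonic kidney origin: wild-type cells (HEK WT) and a line in which HNRNPUL1 was disrupted with CRISPR-Cas9 (HEK UL1 KO). The CN fraction holds the cytoplasm and the nucleoplasm, that is, what is left of the cell once the nucleoli (the NO fraction) have been taken out. Each genotype had 3 CN libraries, so 6 of the 12 libraries of the series enter the comparison. Every gene outside rRNA was used: 60547 of 61163 entries, after dropping 616 nuclear rRNA genes and rRNA pseudogenes. Mitochondrial rRNA was not dropped, so rRNA below means that of nuclear genes. The labels give HEK293T for both, whereas the methods of the study also call the wild type HEK293. They do not say whether HEK UL1 KO is 1 clone, and the genotype cannot be told apart from other differences between the 2 lines, nor can fewer cells of a type and less RNA per cell. Nor do the labels say that replicates were separate cultures, so the p-values measure the spread between libraries, which may be technical.

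hnRNP UL1 is a nuclear RNA-binding protein of the hnRNP U family, whose other members are HNRNPU and HNRNPUL2. It is known for contacts with mRNA export and splicing factors, for repressing histone genes outside S phase together with the U7 snRNP, and for a part in the resection of DNA ends at double-strand breaks. Beside rRNA, the cytoplasm and nucleoplasm hold mRNA, long non-coding RNA and short RNAs made by RNA polymerases II and III, while snoRNAs work mainly in the nucleolus.

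The libraries held 80139835 to 104040073 counts in HEK WT and 54349399 to 69849278 in HEK UL1 KO. Without rRNA, which took 73.9% to 78.7% of the counts, 13701075 to 22149576 counts per library were left. All levels below are CPM, that is, counts over the TMM-scaled library total outside rRNA. HEK WT replicate 3 stood somewhat apart: 42258 entries had at least 1 count there and 46861 to 47694 in the other 5 libraries, and the entry LOC100507412 took 20.1% of its counts outside rRNA and 15.7% to 17.1% of those of the others. Of the line's own markers, 16 of 17 were measured well enough to be tested, with a sum of 383 to 408 CPM in HEK WT and 297 to 299 CPM in HEK UL1 KO. Of these 16, 4 were called higher and 7 lower (4 and 5 under a scaling that follows the level). Markers of other cell types were low: fibroblast markers summed to 12.4 to 15.9 CPM in HEK WT and 19.9 to 24.6 CPM in HEK UL1 KO (3 of 6 tested called higher), endothelial markers to 4.72 to 10.3 and 10.4 to 13.7 CPM (1 of 6 higher) and HeLa-like markers to 10.6 to 12.8 and 13.8 to 15.3 CPM (1 of 4 higher). Blood markers summed to 1.13 to 2.93 CPM over the 6 libraries (0 of 2 called). The medians of the fibroblast, endothelial and HeLa-like markers were 0.87, 0.51 and 0.64, against 0.25, 0.37 and 0.25 for genes of the same levels, and under a scaling that follows the level 2, 0 and 1 were called higher and 1 HeLa-like marker lower. The part of these markers in the results was not tested.

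The targeted gene was checked first. HNRNPUL1 (chr19:41262557-41307787, GRCh38) had 71.8, 62.4 and 72.9 CPM in HEK WT replicates 1 to 3 and 19.2, 19.4 and 19.6 CPM in HEK UL1 KO. The groups did not overlap, and the level was 3.56-fold lower in HEK UL1 KO (log2 fold change -1.83 ± 0.083 SE, adjusted p = 1.6e-07, edgeR). The counts cover the whole gene, so they check the amount of transcript and not whether the reading frame was cut. Among the paralogs, HNRNPU fell from 453 ± 16.7 to 324 ± 12.8 CPM (SD, n = 3; log2 fold change -0.48, adjusted p = 0.000695), a call that is lost when the scaling follows the level (adjusted p = 0.115). HNRNPUL2 was at 25.2 ± 0.78 and 26.4 ± 1.5 CPM, and the ranges of its 2 groups overlapped.

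**Figure D1:**
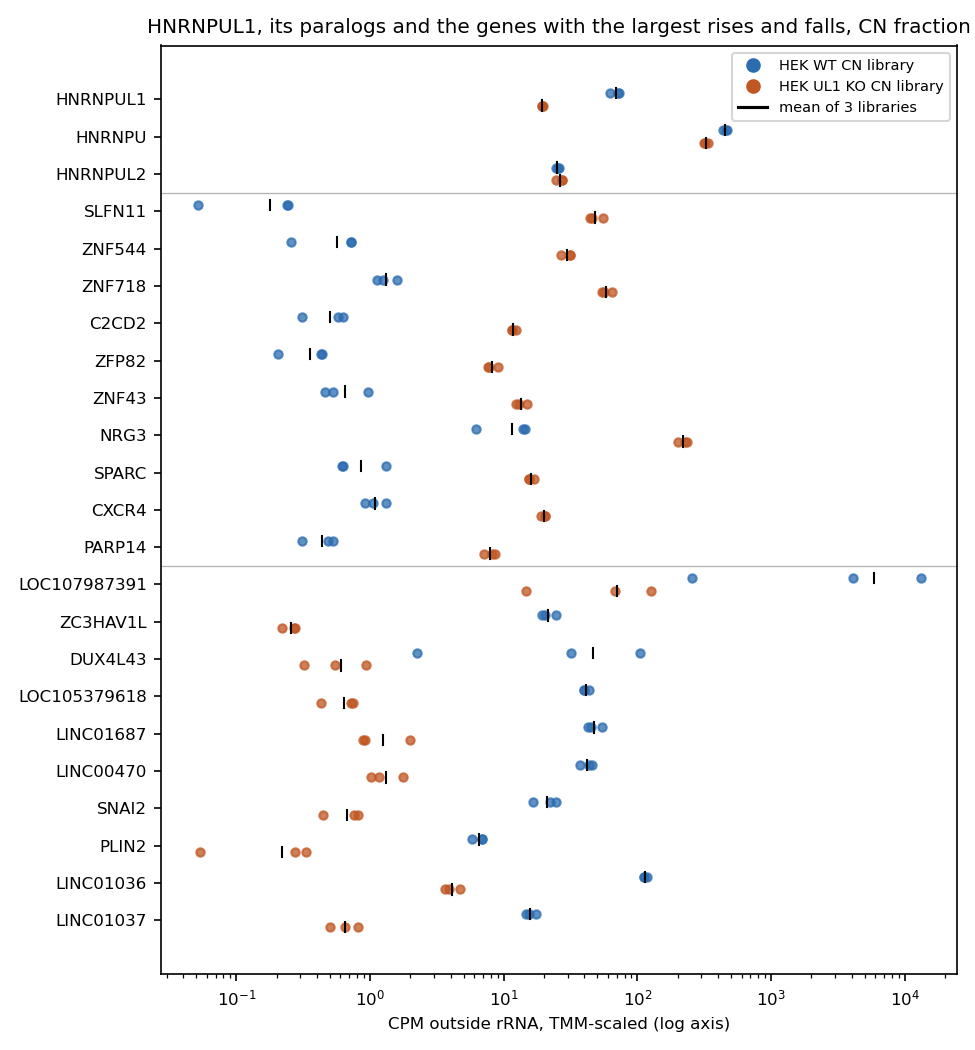
CPM (x axis, log scale) in each of the 6 CN libraries for HNRNPUL1, its paralogs, the 10 genes with the largest rises and the 10 with the largest falls. Points are libraries and black ticks the means of 3. SLFN11 goes from under 0.25 CPM in every HEK WT library to over 44 CPM in every HEK UL1 KO library, while the HEK WT points of LOC107987391 and DUX4L43 are widely spread.

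Of 27287 genes tested, 10298 (37.7%) passed an adjusted p of 0.05: 4229 (15.5%) were higher in HEK UL1 KO and 6069 (22.2%) lower. At least a 2-fold change as well was reached by 2905 genes (10.6%), 1838 of them higher (6.74%) and 1067 lower (3.91%). That split depended on the scaling and the level: under a scaling that follows the level 1075 were higher and 1207 lower, and among genes with a mean of at least 10 CPM 182 were higher and 408 lower. CPM did not overlap between the genotypes for 14330 genes (52.5%). With scaling to total counts the median of all genes moved from 0.04 to 0.17 on the log2 scale and 56.6% of the calls were rises, against 41.1% with TMM, so directions of small changes are relative to the scaling. These shares are the background against which the counts per gene list below are to be read.

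The direction also went with the level. The median log2 fold change was 0.61 for genes of up to 0.5 CPM, 0.17 between 2 and 5 CPM, 0.00 between 5 and 10 CPM, -0.20 between 10 and 50 CPM and -0.32 over 100 CPM. Among the 1083 genes over 100 CPM, 68 were called higher and 641 lower. The 408 olfactory receptor entries, genes that HEK293T cells should hardly express, summed to 86.1, 93.0 and 60.03 CPM in HEK WT and to 94.6, 98.9 and 116 CPM in HEK UL1 KO, and their part in the trend was not tested. Most lists below are therefore set beside the median of all genes of the same levels and the counts under a scaling that follows the level (cyclic loess). That scaling was chosen after the trend had been seen. It called 4279 genes higher (15.7%) and 4637 lower (17%).

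**Figure D2:**
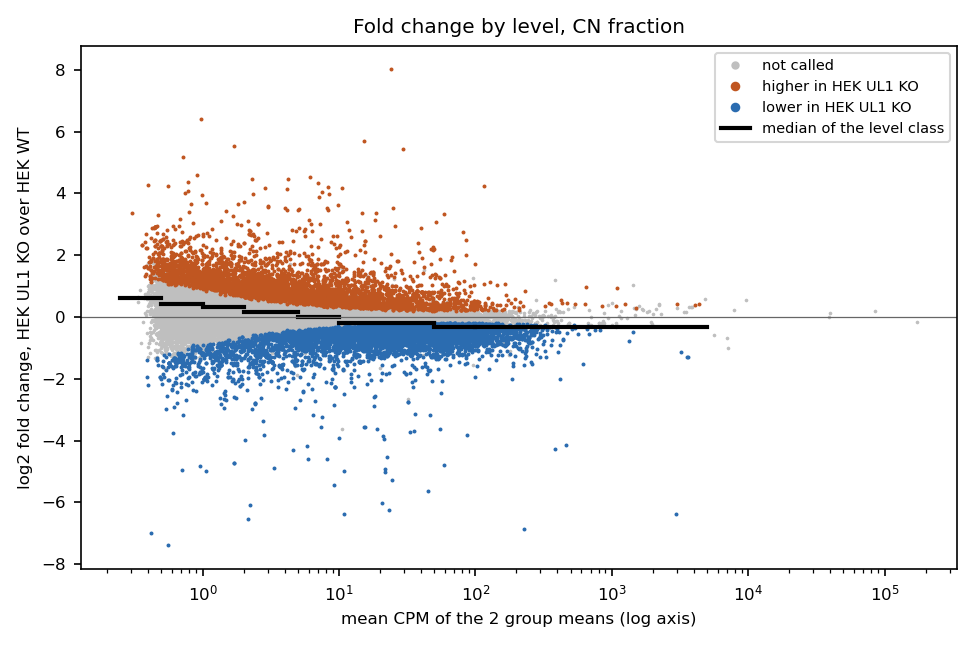
Log2 fold change of HEK UL1 KO over HEK WT (y axis) against the mean level in CPM (x axis, log scale), 1 point per gene, for the 27287 genes tested. Black lines mark the median of each level class, which runs from 0.61 at the lowest level to -0.32 over 100 CPM.

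Among genes called, without overlap and with a mean of at least 50 counts, the largest rise was that of SLFN11 (chr17:35350305-35373621), which codes for a Schlafen protein that blocks stressed replication forks and restricts viruses. It had 5, 5 and 1 counts in HEK WT and 797, 1020 and 675 counts in HEK UL1 KO, a ratio of 269 in CPM with a 95% counting interval of 150 to 540. All HEK UL1 KO libraries were far above all HEK WT libraries (log2 fold change 8.01 ± 0.22 SE, adjusted p = 6.51e-09). PARP14, an ADP-ribosyltransferase induced by interferon, rose from 0.48, 0.53 and 0.31 CPM to 7.13, 8.61 and 8.11 CPM (log2 fold change 4.15, adjusted p = 7e-07).

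Zinc-finger genes, many of which code for DNA-binding repressors, took 4 of the 10 largest rises. ZNF718 on chromosome 4 had 1.59, 1.26 and 1.13 CPM in HEK WT and 56.2, 64.1 and 54.2 CPM in HEK UL1 KO, which is 43.6-fold higher (adjusted p = 3.14e-09). The other 3 lie on chromosome 19: ZNF544 rose by 5.69, ZFP82 by 4.47 and ZNF43 by 4.34 on the log2 scale. The neighbour of ZNF718, ZNF595, went the other way, from 9.02 ± 0.49 to 1.41 ± 0.32 CPM (log2 fold change -2.69, adjusted p = 2.8e-06). Over the whole list of 508 zinc-finger genes tested, 119 were higher and 98 lower (23.4% and 19.3%), with a median of 0.04, equal to that of all genes, and the scaling that follows the level gave 129 and 71. The spread within the list was wide, from -2.81 to 5.69. On chromosome 19, 68 of 236 were higher and 23 lower, and on chromosome 1, 1 of 22 was higher and 11 lower.

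The other 4 of the 10 largest rises were CXCR4, NRG3, SPARC and C2CD2. CXCR4, the receptor of the chemokine CXCL12, rose from 1.06, 1.31 and 0.92 CPM to 20.4, 20.5 and 19.1 CPM (log2 fold change 4.18, adjusted p = 2.95e-08). NRG3, which codes for a neuregulin that acts through the receptor ERBB4, rose from 14.5, 13.9 and 6.20 CPM to 225, 235 and 202 CPM (log2 fold change 4.25). SPARC, a collagen-binding matrix protein, rose by 4.21 and C2CD2 by 4.52 on the log2 scale. No overlap between the groups was a condition for entering these 10.

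Among the falls chosen by the same limits, ZC3HAV1L was the largest with even libraries: 24.5, 20.4 and 19.3 CPM in HEK WT against 0.22, 0.27 and 0.27 CPM in HEK UL1 KO (log2 fold change -6.37 ± 0.20 SE, adjusted p = 1.35e-08). Its paralog ZC3HAV1, the zinc-finger antiviral protein that binds CpG-rich viral RNA, fell by 0.49 (adjusted p = 0.00184). SNAI2, a repressor of epithelial genes, had 24.4, 22.3 and 16.7 CPM in HEK WT and 0.44, 0.75 and 0.82 CPM in HEK UL1 KO (log2 fold change -4.98, adjusted p = 1.66e-07). PLIN2, which coats lipid droplets, fell from 6.48 ± 0.63 to 0.22 ± 0.15 CPM. Long non-coding RNAs made up 5 of the 10: LINC01036 fell from 113 ± 3.3 to 4.07 ± 0.55 CPM, and LOC105379618, LINC01687, LINC00470 and LINC01037 fell by 6.03, 5.28, 5.01 and 4.603 on the log2 scale. The largest fitted fall within those limits, that of LOC107987391, rested on very uneven libraries, with 4084, 258 and 13170 CPM in HEK WT and 127, 67.5 and 14.8 CPM in HEK UL1 KO, and DUX4L43 was as uneven with 2.26, 31.9 and 105 CPM in HEK WT.

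A few genes had at most 3 counts in every library of 1 genotype and at least 50 on average in the other. The cancer-testis antigens MAGEA3 and MAGEA6, near-identical copies on chromosome X whose reads can be shared, had 100, 75 and 95 and 95, 83 and 82 counts in HEK WT and 0, 2 and 1 and 0, 1 and 1 counts in HEK UL1 KO. In CPM the ratios of HEK WT to HEK UL1 KO were 75.8 (95% interval 25.7 to 370) and 109 (30 to 908). In the other direction ERVMER34-1, a gene of an endogenous retroviral envelope, had 2, 2 and 0 counts in HEK WT and 52, 74 and 47 in HEK UL1 KO. MIR663B, LOC100533787, B3GNT6 and PCMTD1P6 also met these limits, but their counts above 3 came from 1 or 2 libraries, and they did not pass the filter for testing.

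Short non-coding RNAs held the 3 lists with the lowest medians: nuclear tRNA genes, box H/ACA snoRNAs and spliceosomal snRNAs. They come in families: box H/ACA snoRNAs guide pseudouridylation, box C/D snoRNAs guide 2′-O-methylation, scaRNAs guide the same changes on snRNAs in Cajal bodies, and snRNAs build the spliceosome. Some members with strong falls, whose genes GENCODE v44 gives with a strand, are printed below from hg38, 5′ to 3′ as DNA. Others with strong falls are not printed. All of those printed lie on chromosome 1 between 25 and 30 Mb, where 42 of 92 genes tested were lower and 8 higher (median -0.32). The part of position in their falls was not tested. Capitals mark the ACA box, 3 bases from the end in each of the first 3, and the Sm protein site in RNU11.
SNORA73A (chr1:28507366-28507571, plus strand): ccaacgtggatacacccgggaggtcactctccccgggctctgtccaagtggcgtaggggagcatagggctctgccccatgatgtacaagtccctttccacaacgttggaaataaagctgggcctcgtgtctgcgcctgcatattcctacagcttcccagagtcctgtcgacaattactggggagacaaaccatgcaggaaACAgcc
SNORA73B (chr1:28508559-28508762, plus strand): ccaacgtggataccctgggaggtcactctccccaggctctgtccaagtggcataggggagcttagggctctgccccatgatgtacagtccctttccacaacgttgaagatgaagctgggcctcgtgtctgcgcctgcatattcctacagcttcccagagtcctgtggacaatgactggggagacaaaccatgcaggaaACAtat
SCARNA1 (chr1:27834401-27834566, plus strand): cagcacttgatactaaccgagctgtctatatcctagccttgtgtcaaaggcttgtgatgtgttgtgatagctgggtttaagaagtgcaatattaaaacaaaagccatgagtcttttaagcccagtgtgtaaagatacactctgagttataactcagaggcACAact
RNU11 (chr1:28648600-28648733, plus strand): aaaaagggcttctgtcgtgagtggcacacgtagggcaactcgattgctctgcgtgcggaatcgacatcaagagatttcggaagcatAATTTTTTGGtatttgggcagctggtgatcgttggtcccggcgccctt

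SNORA73A and SNORA73B, the 2 human copies of the U17 RNA that takes part in 18S rRNA processing, are identical at 93.2% of 206 aligned columns, so reads may be shared between them. Both lie inside SNHG3 and RCC1 on the same strand. SNORA73A had 4.75, 5.76 and 7.23 CPM in HEK WT and 1.11, 0.97 and 1.64 CPM in HEK UL1 KO, and SNORA73B 10.8, 13.7 and 14.8 against 3.20, 3.45 and 2.32 CPM. These are falls of 2.27 and 2.12 on the log2 scale (adjusted p = 5.3e-05 and 1.04e-05). The host RNA SNHG3 fell by less, from 41.7 ± 4.5 to 15.7 ± 1.6 CPM (log2 fold change -1.41, adjusted p = 5.49e-06); the difference between host and guest was not tested.

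Of 192 box H/ACA entries 87 were tested, 61 of which (70.1%) were lower and 1 (1.15%, SNORA109 with a rise of 0.59) higher. Their median was -1.15, against 0.33 for genes of the same levels, and the scaling that follows the level gave 72 falls. The summed level was 304, 283 and 316 CPM in HEK WT and 194, 190 and 176 CPM in HEK UL1 KO. The number of falls dropped to 37 without HEK UL1 KO replicate 1 and to 34 without HEK UL1 KO replicate 3, and it was 27 where at least 10 counts were required in every library.

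Of 109 box C/D snoRNAs tested, 25 (22.9%, near the 22.2% of all genes) were lower and 2 higher. Their median was -0.62, against 0.41 for genes of the same levels, and the scaling that follows the level gave 41 falls. SNORD118, the U8 RNA needed for 5.8S and 28S maturation, fell from 13.5 ± 2.8 to 4.96 ± 1.1 CPM (log2 fold change -1.44, adjusted p = 0.000194). SNORD3A, the U3 RNA and the most abundant of those named, had 1360, 999 and 1326 CPM in HEK WT and 1106, 1007 and 863 CPM in HEK UL1 KO, with overlapping groups (adjusted p = 0.0982). The 2 rises, SNORD49A and the cluster entry SNORD116@, were in entries of at most 1.38 CPM. The call of SNORD49A is lost under the scaling that follows the level (adjusted p = 0.151, limma), which also called 2 rises. In DESeq2 the SNORD49A call is lost too (adjusted p = 0.0831). The shares of box C/D and box H/ACA members were not tested against each other.

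Of 26 scaRNAs tested 11 were lower and none higher, a count of 0 that holds in DESeq2 and at an unadjusted p under 0.05 too. Their median was -0.53, against 0.17 for genes of the same levels, and the scaling that follows the level gave 12 falls. SCARNA1 had 6.29, 6.10 and 8.05 CPM in HEK WT and 0.66, 2.05 and 1.29 CPM in HEK UL1 KO (log2 fold change -2.34, adjusted p = 0.000148), and SCARNA7 fell by 1.13. SCARNA2, at 2.66 ± 0.31 and 2.28 ± 0.22 CPM, was not called. Leaving out HEK UL1 KO replicate 1 or 3 gave 7 falls.

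Among 36 spliceosomal snRNA entries, 19 (52.8%) were lower and none higher in edgeR, DESeq2 or at an unadjusted p under 0.05, with a median of -0.83 against -0.31 for genes of the same levels (18 lower under the scaling that follows the level). The falls included snRNAs of the minor spliceosome, which removes the rare U12-type introns: RNU11 went from 39.0, 31.6 and 39.5 CPM to 13.6, 13.6 and 9.20 CPM (log2 fold change -1.59, adjusted p = 1.75e-05), and RNU12 fell by 1.12. They included RNU4-2 of the major spliceosome (242, 223 and 363 CPM against 86.4, 140 and 70.7 CPM) and RNU5D-1 (log2 fold change -1.62). The 4 RNU1 entries, with fold changes between -0.29 and -0.19, were not called. These genes have many near-identical copies, among which the counting may have split reads.

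Nuclear tRNA genes, transcribed by RNA polymerase III, were represented by 669 entries, of which 290 were tested, 198 (68.3%) were lower and none was higher, in edgeR, in DESeq2 or at an unadjusted p under 0.05. The median was -1.19, with single genes from -2.77 to 0.27, against 0.33 for genes of the same levels, and 231 were lower under the scaling that follows the level. Their summed level was 1161, 959 and 1509 CPM in HEK WT and 551, 597 and 387 CPM in HEK UL1 KO. By amino acid, 11 of 12 aspartate genes, 24 of 28 alanine, 24 of 27 glycine and 31 of 40 leucine genes fell, while none of the 9 histidine and 4 cysteine genes and 6 of the 28 arginine genes passed. The glycine genes TRG-GCC1-1 and TRG-GCC1-5 fell by 2.26 and 2.13. tRNA genes of 1 anticodon are often identical, so entries are not independent, and leaving out HEK UL1 KO replicate 3 reduced the falls to 117.

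Of 13 other RNAs of RNA polymerase III, 5 were lower and none higher in edgeR (1 higher at an unadjusted p under 0.05, 0 in DESeq2). Their median was -0.54, against -0.32 for genes of the same levels, and the scaling that follows the level gave 3 falls and 1 rise. The Y RNAs, which bind the protein Ro60, were the lowest: RNY5 had 63.8, 37.0 and 67.0 CPM in HEK WT and 15.8, 14.5 and 8.72 CPM in HEK UL1 KO (log2 fold change -2.09, adjusted p = 7.33e-05), and RNY1 fell by 1.53. The catalytic RNAs of RNase MRP and RNase P, RMRP and RPPH1, fell by 0.53 and 0.67, calls that are lost under the scaling that follows the level (adjusted p = 0.15 and 0.171). RN7SK, which holds P-TEFb inactive, was at 1312 ± 156 and 1606 ± 214 CPM, and RN7SL1 of the signal recognition particle at 518 ± 175 and 450 ± 31 CPM; neither was called. The library kit, its size selection and the fragment lengths of each library were not analysed here, and their part in these values was not tested.

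**Figure D3:**
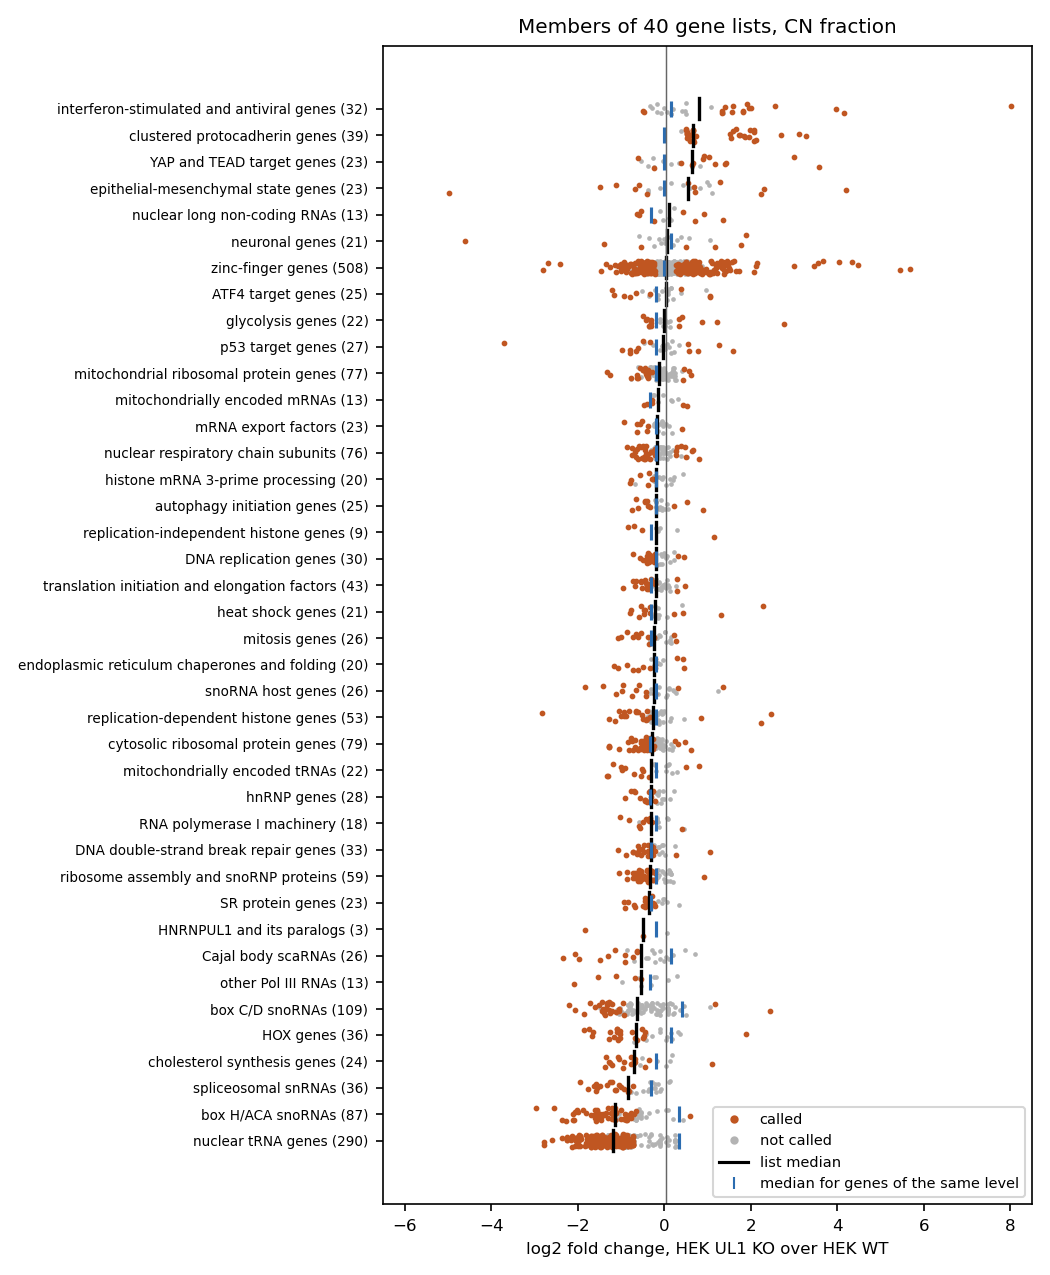
Log2 fold change of HEK UL1 KO over HEK WT (x axis) for the members of 40 gene lists (y axis, number tested in brackets). Black bars are list medians, blue ticks the median expected from genes of the same level and the grey line the median of all genes (0.04). tRNA genes (-1.19) and box H/ACA snoRNAs (-1.15) lie farthest below, antiviral genes (0.79) and protocadherins (0.67) farthest above, although under the scaling that follows the level the antiviral median is 0.36 and that of protocadherins 0.60.

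Cholesterol synthesis genes were lower. They code for the enzymes from acetyl-CoA to cholesterol and for their regulators, and are switched on together by the transcription factor SREBP-2 when sterols are scarce. Of 24 tested, 17 (70.8%) fell and 1 rose, and the median was -0.70 against -0.20 for genes of the same levels. IDI1, the isomerase of isopentenyl diphosphate, had 81.9, 66.8 and 74.95 CPM in HEK WT and 28.3, 31.3 and 28.1 CPM in HEK UL1 KO (log2 fold change -1.35 ± 0.091 SE, adjusted p = 2.64e-06). HMGCS1, the synthase that makes HMG-CoA, fell by 0.95 on the log2 scale, also with no overlap. The rise was that of TM7SF2, from 1.00 ± 0.28 to 2.15 ± 0.39 CPM, a call that is lost under the scaling that follows the level (adjusted p = 0.089), which gave 14 falls and 1 rise, that of another gene. The summed level was 807, 750 and 883 CPM against 479, 489 and 463 CPM.

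Promoters of RefSeq, from 250 bases before to 50 after the start, were matched for 18 of the 24 genes and searched on both strands. The letters TCACNCCAC, a form of the sterol response element, were found in 1 of the 18 (SREBF2) and in 1.15% of 27305 promoters. CCAAT, the box bound by NF-Y, was in 15 of the 18 and in 35.7% of all promoters. The 15 with it had a median of -0.57, and the 3 without it a median of -1.04. The bases -170 to -81 of HMGCS1 are shown since they hold 2 such boxes (in capitals, read on the other strand).
HMGCS1 (chr5:43313493-43313582, minus strand, GRCh38.p14): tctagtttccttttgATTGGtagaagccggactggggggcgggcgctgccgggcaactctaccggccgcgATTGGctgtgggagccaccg

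HOX genes, the homeobox factors that set position along the body axis, were lower in 22 (61.1%) of 36 cases and higher in 1. The median was -0.65, against 0.17 for genes of the same levels. By cluster, 8 of 11 HOXA, 7 of 9 HOXB, 4 of 9 HOXC and 3 of 7 HOXD genes fell. The clusters were not tested against each other. HOXA3 had 68.8, 70.0 and 106 CPM in HEK WT and 24.9, 25.4 and 26.0 CPM in HEK UL1 KO (log2 fold change -1.68, adjusted p = 1.36e-05), and HOXA9 fell by 1.73. The rise was in HOXC12, at 0.18 ± 0.071 and 0.70 ± 0.16 CPM, which passed the filter only with HEK UL1 KO libraries. Without HEK UL1 KO replicate 1 the number of falls was 14; HOX genes overlap with antisense RNAs, and whether the counting used strand is not given in the sources used here.

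Clustered protocadherins, cell adhesion proteins of neurons of which a cell expresses its own choice, were higher. Of 39 entries tested 38 (97.4%) rose (27 in DESeq2) and none fell in either tool or at an unadjusted p under 0.05, with a median of 0.67 against 0.00 for genes of the same levels (34 higher under the scaling that follows the level). The median was 1.97 for the 16 alpha entries and 0.55 for the 22 gamma entries. PCDHAC2 rose from 0.62, 0.53 and 0.15 CPM to 4.03, 4.20 and 3.41 CPM (log2 fold change 3.12, adjusted p = 6.12e-05) and PCDHAC1 by 2.71. Entries of a cluster share their last exons, so the same reads may stand behind many of the 38 rises. Of 55 entries only 39 were tested, and one as low in HEK WT as PCDHAC2 passed the filter only with HEK UL1 KO libraries. Such entries could enter the list by rising, and the part of the filter in the 38 rises was not tested. The summed level went from 136, 161 and 122 CPM to 291, 287 and 287 CPM.

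**Figure D4:**
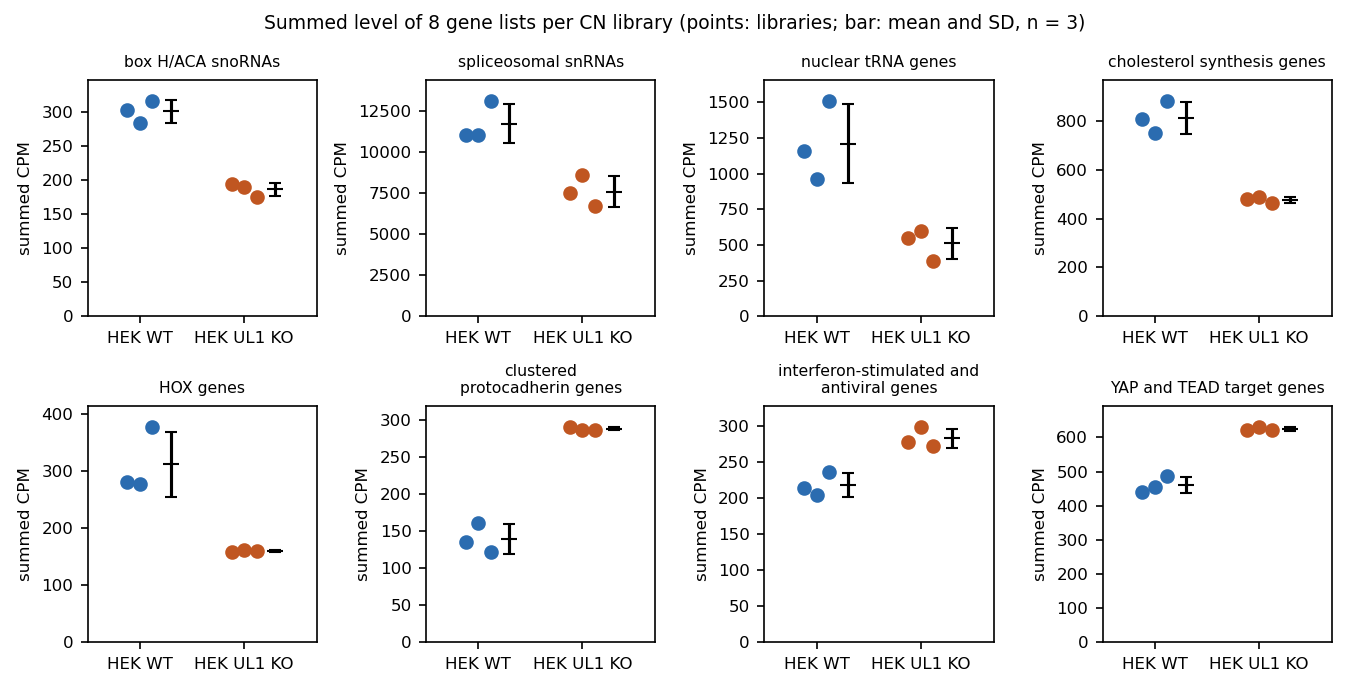
Summed CPM (y axis, from 0) of 8 gene lists in each CN library. Points are the 3 libraries of HEK WT and of HEK UL1 KO, and the bar beside them the mean with its SD. Box H/ACA snoRNAs, tRNA genes, snRNAs, cholesterol synthesis and HOX genes sit lower in every HEK UL1 KO library, and protocadherins, antiviral and YAP target genes sit higher. The antiviral sum is carried by SLFN11, and without it the genotypes overlap.

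Interferon-stimulated and antiviral genes, which hold the sensors and effectors against viral RNA, were higher in 14 (43.8%) of 32 cases and lower in 2. Their median was 0.79, against 0.17 for genes of the same levels, and under the scaling that follows the level it was 0.36, with 12 rises and 2 falls. The higher sum of the list was carried by SLFN11: without that gene, an alternative chosen after seeing the data, it was 214.2, 203.6 and 236.9 CPM in HEK WT and 233.9, 243.6 and 226.3 CPM in HEK UL1 KO, and the genotypes overlapped. Besides SLFN11 and PARP14, all of the 3 Schlafen and 4 PARP genes in the list rose. IFIH1, the sensor MDA5 for long double-stranded RNA, rose from 0.82, 0.87 and 0.51 CPM to 4.53, 3.98 and 4.56 CPM (log2 fold change 2.55, adjusted p = 2.35e-05). IFI6 rose from 0.87 ± 0.41 to 2.57 ± 0.50 CPM, while the transcription factors of the pathway were not called: 2 STAT and 2 IRF genes had fold changes between -0.32 and 0.07. IFIT5 fell by 0.47, a call lost without any 1 of 5 libraries, and 4 rises were called where at least 10 counts were required in every library.

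GAAA repeated after a gap of any 2 bases, as in the interferon-stimulated response element, was in 15 of the 24 tested members with a RefSeq promoter, on either strand, and in 3.65% of all promoters. The 15 with it had a median of 0.51, and the 9 without it a median of 0.07. SLFN11, with the largest rise, had no match in its window. Upstream stretches of PARP14, IFIH1 and IFI6 are given with the matches on either strand in capitals, IFIH1 and IFI6 having been chosen for it after their values had been seen.
PARP14 (chr3:122680779-122680838, plus strand, bases -60 to -1): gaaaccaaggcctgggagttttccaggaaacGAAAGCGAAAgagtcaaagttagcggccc
IFIH1 (chr2:162318685-162318854, minus strand, bases -170 to -1): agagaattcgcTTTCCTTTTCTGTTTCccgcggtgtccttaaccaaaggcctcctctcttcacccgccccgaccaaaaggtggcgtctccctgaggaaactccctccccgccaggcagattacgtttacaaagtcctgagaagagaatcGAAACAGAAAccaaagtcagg
IFI6 (chr1:27672263-27672362, minus strand, bases -170 to -71): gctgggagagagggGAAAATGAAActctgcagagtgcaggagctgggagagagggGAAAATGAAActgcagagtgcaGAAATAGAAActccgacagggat

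Targets of YAP and TEAD, the effectors of the Hippo pathway that senses cell density and tension, were higher in 11 (47.8%) of 23 cases and lower in 2, with a median of 0.65 against 0.00 for genes of the same levels (10 higher, 1 lower and 0.60 under the scaling that follows the level). CCN2, a matrix growth factor and the standard readout of YAP, had 1.49, 1.65 and 1.69 CPM in HEK WT and 13.2, 12.2 and 13.4 CPM in HEK UL1 KO (8.01-fold higher, adjusted p = 2.4e-07). ANKRD1 rose by 3.59, CCN1 by 1.03 and the RNA-binding protein gene RBMS3 by 1.42. The falls were in WWC1, the Hippo scaffold KIBRA (log2 fold change -0.61), and in PTPN14, a YAP-binding phosphatase (-0.23), whose direction turns under the scaling that follows the level.

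GGAATG, the core of the TEAD site, was in 7 of the 17 tested members with a promoter and in 14% of all promoters. The 7 with it had a median of 0.17, and the 10 without it a median of 0.74. CCN2 held it 3 times and ANKRD1 2 times (in capitals).
CCN2 (chr6:131951453-131951552, minus strand, bases -180 to -81): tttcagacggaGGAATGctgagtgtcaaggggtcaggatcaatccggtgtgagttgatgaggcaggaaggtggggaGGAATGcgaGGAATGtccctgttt
ANKRD1 (chr10:90921198-90921317, minus strand): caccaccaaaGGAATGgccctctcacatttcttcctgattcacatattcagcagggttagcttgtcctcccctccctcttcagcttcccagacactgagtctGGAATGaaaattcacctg

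Genes of the epithelial-mesenchymal state split. Of 23 tested 7 rose and 6 fell (5 and 4 under the scaling that follows the level), with a median of 0.54 against 0.00 for genes of the same levels. Under that scaling the list median was 0.29. SNAI2 and vimentin (VIM), a mesenchymal filament, fell, the latter from 122, 110 and 153 CPM to 47.4, 49.1 and 42.0 CPM (log2 fold change -1.48), while the epithelial keratin KRT8 rose by 2.30 and the mesenchymal SPARC by 4.21. CDH2, N-cadherin, was at 96.4 ± 23.4 and 89.7 ± 1.9 CPM and was not called. Of the neuronal genes, 4 of 21 rose and 3 fell (5 and 3 under that scaling), with a median of 0.06 against 0.17; INA, a neuronal intermediate filament on the list of the line's markers, fell from 12.3, 9.14 and 13.0 CPM to 0.50, 0.43 and 0.48 CPM (log2 fold change -4.599, adjusted p = 3e-07). EYA1, a kidney lineage factor, fell by 1.795, and LHX1, of the same lineage, rose by 1.85.

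Lists of processes in which hnRNP UL1 is known to act came next. Of 53 replication-dependent histone genes, whose mRNAs end in a stem-loop in place of a poly(A) tail, 18 fell and 3 rose (14 and 5 under the scaling that follows the level), with a median of -0.26 against -0.20 for genes of the same levels. H2BC8 and H2AC8 rose from 1.38 ± 0.41 to 7.78 ± 2.0 and from 3.33 ± 0.54 to 15.7 ± 1.8 CPM, and H3C7 fell by 2.83, while H4C3 fell by 0.61 and H1-4 was not called. In the list of double-strand break repair genes 21 of 33 fell and 2 rose, with a median equal to that of genes of their levels (-0.31); there were 11 falls and 3 rises with total counts, and 11 falls and 7 rises under the scaling that follows the level. RPA2, a subunit of the protein that coats single-stranded DNA, fell from 40.9 ± 0.90 to 19.4 ± 0.15 CPM (log2 fold change -1.07, adjusted p = 2.95e-06), UIMC1 fell by 0.88, NBN by 0.60 and PARP1 by 0.59, and LIG4, the ligase of end joining, rose by 1.05. CHEK1 was not called. LIG4 lies on chromosome 13 between 105 and 110 Mb, where 13 of 16 genes tested rose and 0 fell (median 1.11). RPA2 lies on chromosome 1 between 25 and 30 Mb, where 42 of 92 fell and 8 rose (median -0.32). The part of position in these values was not tested.

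mRNA export factors (7 of 23 lower, 1 higher), hnRNP genes (17 of 28 lower, 0 higher) and SR protein genes (17 of 23 lower, 0 higher), which act in splicing, had medians of -0.17, -0.30 and -0.35, close to those of genes of the same levels (-0.20, -0.32 and -0.31). These counts of 0 are from edgeR. DESeq2 also gave 0, and an unadjusted p under 0.05 gave 1 hnRNP gene and 0 SR genes. Under the scaling that follows the level 7 hnRNP genes were higher and 5 lower, 2 SR genes higher and 7 lower, and 5 export factors higher and 5 lower. Among the falls with the smallest p-values in these lists were those of THOC2 of the TREX complex (log2 fold change -0.92), PTBP2 (-0.90), HNRNPH1 (-0.77), SREK1 (-0.92) and SRSF4 (-0.70).

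Of 79 cytosolic ribosomal protein genes 44 (55.7%) fell and 4 (5.06%) rose, with a median of -0.29 against -0.32 for genes of the same levels, and the scaling that follows the level gave 14 falls and 16 rises. RPS6 stood out with 359, 318 and 319 CPM in HEK WT and 132, 137 and 146 CPM in HEK UL1 KO (log2 fold change -1.27, adjusted p = 2.18e-06), and so did RPL10 (-1.29). RPL8 and RPL19 rose by 0.63 and 0.49, while RPS15, with 60.8 ± 11.7 and 53.02 ± 1.2 CPM, was not called. Fibrillarin (FBL), the methylase of box C/D particles, fell by 0.47, a call lost under the scaling that follows the level (adjusted p = 0.0527). Of 59 ribosome assembly genes 36 fell and 1, BOP1, rose (by 0.92), but 19 fell and 12 rose under the scaling that follows the level. Their median was -0.34, against -0.20 for genes of the same levels. HEATR1 and UTP15 of the small-subunit processome fell by 0.87 and 1.04. RPL8 and BOP1 lie on chromosome 8 between 140 and 145 Mb, where 56 of 88 genes tested rose and 1 fell (median 0.74). RPL10 lies on chromosome X between 150 and 155 Mb, where 43 of 80 fell and 1 rose (median -0.53). RPS6 lies on chromosome 9 between 15 and 20 Mb, where 10 of 24 fell and 2 rose (median -0.26). The part of position in these values was not tested. GAPDH rose by 0.34 (adjusted p = 0.0277), a call lost without 5 of the 6 libraries in turn.

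The p53 target list held 5 rises and 8 falls in 27 genes (8 and 7 under the scaling that follows the level), with a median of -0.02 against -0.20 for genes of the same levels. PURPL, a long non-coding RNA induced by p53, fell from 64.5, 65.2 and 55.0 CPM to 5.25, 4.42 and 4.36 CPM (log2 fold change -3.71, adjusted p = 1.16e-08), and CCNG1 fell by 0.97. CDKN1A, the cell cycle inhibitor p21, rose from 1.17 ± 0.43 to 2.79 ± 0.17 CPM (log2 fold change 1.26, adjusted p = 0.00563), and TNFRSF10B and GADD45A rose by 0.56 and 0.78. The stress-inducible chaperones HSPA1A and HSPA1B, copies of 1 another that share reads, rose by 2.28 and 1.30, while the constitutive HSPA8 fell by 0.79. Of 21 heat shock genes tested, 4 rose and 9 fell (6 and 3 under the scaling that follows the level), with a median of -0.21 against -0.31 for genes of the same levels. In the endoplasmic reticulum, calnexin (CANX) fell from 318 ± 13.8 to 150 ± 0.94 CPM, and its soluble relative CALR and the disulfide isomerase PDIA3 rose by 0.44 and 0.46. Of the 20 genes tested of their list, 3 rose and 10 fell (3 and 6 under the scaling that follows the level), with a median of -0.24 against -0.20 for genes of the same levels. SLC2A3, a glucose transporter, rose by 2.78 in a glycolysis list with 6 rises and 7 falls in 22 genes (7 and 1 under the scaling that follows the level) and a median of -0.01 against -0.20 for genes of the same levels.

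Of the mitochondrially encoded mRNAs, 2 of 13 rose and 4 fell; these are small changes between -0.48 (ND2) and 0.53 (ND6), and the scaling that follows the level gave 0 falls and 6 rises. Their median was -0.15, against -0.32 for genes of the same levels. The nuclear long non-coding RNAs MALAT1, which gathers in nuclear speckles, and NEAT1, the scaffold of paraspeckles, rose from 751 ± 28.3 to 1424 ± 66.1 and from 127 ± 22.1 to 208 ± 34.6 CPM (log2 fold changes 0.92 and 0.72), whereas TUG1 and FTX fell by 0.58 and 0.64. In the mitosis list 11 of 26 genes fell, among them CCNB1 (by 0.99) and ECT2 (by 1.08), and 2 rose, but 7 fell and 8 rose under the scaling that follows the level. The median, -0.24, was above that of genes of the same levels (-0.31). In the autophagy list 8 of 25 fell and 3 rose (5 and 5 under that scaling), with a median of -0.18 against -0.20, ULK2 being higher by 0.52 and ATG7 lower by 0.75.

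Changes also clustered along chromosomes. A position in RefSeq was known for 23610 of the genes tested. On chromosome 15, 319 of 864 genes rose and 41 fell (median 0.34), and chromosomes 4 and 8 followed with medians of 0.33 and 0.27. On chromosome 9, 42 of 970 rose and 356 fell (median -0.28), and on chromosome 22, 14 of 509 rose and 175 fell (median -0.25). Under the scaling that follows the level these 5 medians kept their signs (0.38, 0.25, 0.22, -0.27 and -0.27). DNA copy number was not measured here, and its part in these values was not tested.

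**Figure D5:**
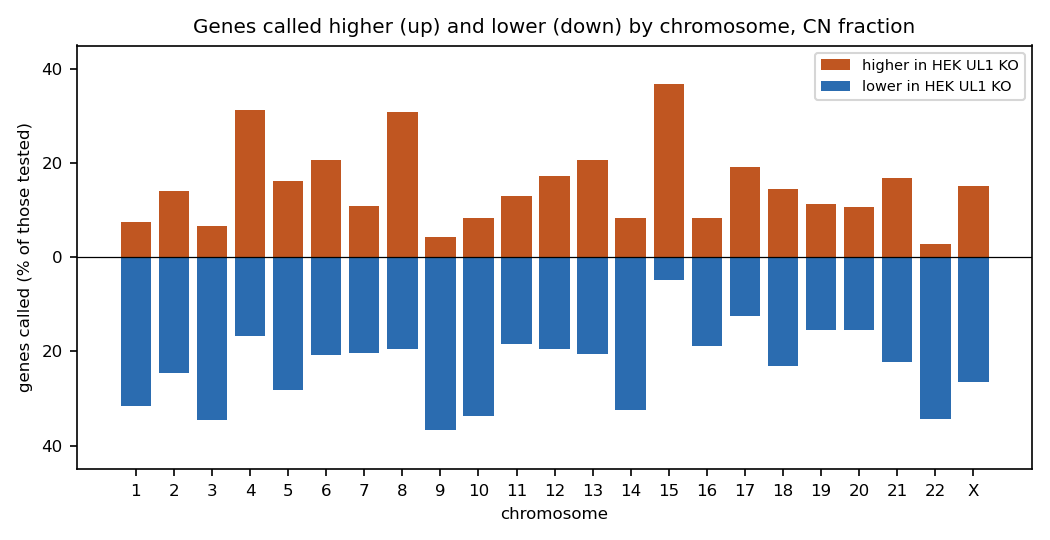
Share of genes called higher in HEK UL1 KO (orange, upwards) and lower (blue, downwards), in percent of the genes tested on each chromosome (x axis). Chromosome 15 has 36.9% higher and 4.75% lower, and chromosome 22 has 2.75% higher and 34.4% lower.

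In windows of 5 Mb with at least 15 genes tested, 548 in all, the median log2 fold change lay between -0.46 and 0.53 for the middle 90% (5th and 95th percentile). The highest medians were in the adjacent windows of chromosome 4 from 185 to 190 Mb (1.29, 36 genes) and 180 to 185 Mb (1.23, 29 genes), at the end of the long arm. Of the 65 genes of these 10 Mb, 57 rose and 1 fell, and 61 had no overlap between the genotypes. The rise was alike in the 3 HEK UL1 KO libraries: the median gene stood 0.94, 0.95 and 0.98 above the HEK WT mean on a log2 scale with 0.5 CPM added, and the HEK WT libraries at 0.06, 0.05 and -0.08. FAT1, a giant cadherin that feeds into the Hippo pathway, rose from 78.6, 79.4 and 83.1 to 178, 174 and 173 CPM (2.18-fold). WWC2 rose by 1.04 and SORBS2 by 3.54 on the log2 scale.

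The next window, on chromosome 13 from 105 to 110 Mb (median 1.11, 13 of 16 genes higher), was led by NALF1, which rose from 11.6, 10.4 and 10.1 to 109, 111 and 104 CPM (log2 fold change 3.34, adjusted p = 3.14e-09). The lowest windows were on chromosome X from 155 Mb (median -0.88, 13 of 18 genes lower, among them BRCC3 and VAMP7), on chromosome 1 from 245 Mb (-0.78, 16 of 32 lower, led by SMYD3 at -1.56 and AHCTF1 at -1.19) and on chromosome 1 from 185 to 190 Mb (-0.77, 14 of 21 lower), where LINC01036 and LINC01037 lie. Under the scaling that follows the level these lowest medians were -0.71, -0.867 and -0.555. Chromosome 9 from 85 to 90 Mb (-0.754) and chromosome X from 135 to 140 Mb (-0.745) then ranked among the lowest. Chromosome 4 from 185 Mb stayed highest (1.14). Windows of 10 Mb put the same stretch of chromosome 4 highest, with a median of 1.23, but the lowest were others: chromosome 5 from 180 Mb (-0.73), chromosome 21 up to 10 Mb (-0.69) and chromosome 9 from 30 to 40 Mb (-0.59).

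Genes were also grouped by their span. Among protein-coding genes of at least 5 CPM, the median log2 fold change was -0.19 for spans of up to 10 kb, -0.26 between 30 and 100 kb and -0.20 between 100 and 300 kb. It was 0.11 for the 741 genes over 300 kb, of which 252 (34%) rose and 226 (30.5%) fell. Their median level, 42.4 CPM, was the highest of the classes. Under the scaling that follows the level the medians were -0.07 up to 10 kb and -0.06 between 30 and 100 kb. They were 0.04 between 100 and 300 kb and 0.35 over 300 kb. The part of the level in these values was not tested.

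The same genotype comparison in the NO fraction was set against that in CN with an interaction term, fitted to all 12 libraries together. Of 36022 genes tested, 40 (0.111%) had an effect that differed at an adjusted p of 0.05. In 39 of the 40 the change was larger in CN, and in 36 it had the same sign in both fractions. SLFN11 rose by 8.01 in CN and by 4.26 in NO, ZNF718 by 5.45 and 2.99, while the log2 fold changes of ZC3HAV1L were -6.37 and -3.14. For HNRNPUL1 itself the effects were -1.83 and -1.95 and did not differ in this test (adjusted p = 1).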

How the data were processed

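RNA was measured in 2 fractions (CN, NO) of both genotypes, with 3 libraries each. Per the paper and the labels, total RNA libraries without rRNA depletion were sequenced. Per the same sources, reads were trimmed with Cutadapt 3.7, checked with FastQC 0.11.4, aligned to GRCh38 with STAR 2.7.8a and counted per gene with featureCounts. Strand setting and annotation version are not given in the sources used here. The authors deposited raw counts per gene, not normalized, 1 table per fraction; all 12 columns were matched by name and 0 were left out. Nuclear rRNA entries were dropped before normalization, and mitochondrial rRNA was kept. The genotypes were compared in CN with edgeR 4.0.16 (R 4.3.3): filterByExpr (minimum count 10, minimum total 15), TMM, quasi-likelihood F test, two-sided, Benjamini-Hochberg threshold 0.05. The filter asks for about that count in as many libraries as a group holds. A gene almost absent in 1 genotype is therefore tested only because of its level in the other. Single values of 3 against 3 libraries cannot go below p = 0.1 in an exact permutation test, so none is given. The alternatives were DESeq2 1.42.0, limma 3.58.1 after cyclic loess, other scalings and filters, the replicate block and leaving out each library. Libraries of 1 group differed by more than sampling noise (chi-square per gene at least 9.02), so none was a duplicate.

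The genes named come from a rule: HNRNPUL1, its paralogs, FBL, RPS6, RPS15 and GAPDH; the 10 largest rises and falls among genes called, without overlap and with a mean of at least 50 counts; the anchors and the 2 smallest p-values in each direction of each list; genes of at most 3 counts in each library of 1 genotype and at least 50 on average in the other; and the 2 smallest p-values in the 3 highest and 3 lowest windows. Not all of them are printed, and ANKRD1, IFIH1, IFI6 and the 3 genes named only for the difference between fractions (SFRP1, OXCT1, FBXL7) were chosen after their values had been seen. The members and the 40 lists were chosen with earlier results of these data known. Symbols TRNP1 and TRNT1 were taken out of the mitochondrial tRNA list after the data had been seen. Sequences are from RefSeq promoters (GRCh38.p14) and from GENCODE v44 genes on hg38. Depth was 13701075 to 22149576 counts outside rRNA per library, and counting intervals cover counting error only. The tests were tested on simulated data. Figures were drawn with matplotlib 3.10.9 and sequences aligned with Biopython 1.88 in Python 3.11.15. Some genes that the rule names are not reported here.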

Additional observations from a re-analysis of the deposited data

Results flagged for a closer look

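The genotype effect differed between CN and NO for 40 genes (edgeR interaction test, adjusted p under 0.05), with 15 to 53 under the alternatives tried. Values follow for 18 of the 40, and the other 22 are not listed. Given as the log2 effect in CN minus that in NO, those higher in HEK UL1 KO were SLFN11 (3.77), C2CD2 (3.66), ZNF544 (3.22), NRG3 (2.79), ZFP82 (2.56), ZNF718 (2.43), SFRP1 (2.39) and PARP14 (2.32). Those lower were MAGEA6 (-4.51), MAGEA3 (-4.10), ZC3HAV1L (-3.30), LOC105379618 (-2.82), LINC00470 (-2.70), LINC01036 (-2.68), OXCT1 (-2.40), LINC01037 (-2.12), LINC01687 (-2.10) and FBXL7 (-1.99). The cause was not tested.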

How the results depend on the processing

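The genes changed in CN, 10298, became 4354 with all 12 libraries in 1 fit, 6376 at an adjusted p under 0.01 and 5753 among genes with a mean of at least 10 CPM; other settings gave 8488 (replicate block) to 13008 (without adjustment), and fits without a library gave 7148 to 10329. The calls of at least 2-fold, 2905, became 1892 with at least 10 counts in every library, 590 among genes with a mean of at least 10 CPM and 2282 (1075 higher, 1207 lower) under the scaling that follows the level, and ranged from 2099 to 3736 without a library. HNRNPUL1 stayed lower and called in all settings tried (-1.90 to -1.58). Of the 40 lists, 33 had a median below that of all genes, and 23 did under the scaling that follows the level. The 40 genes with a differing effect became 18 with total counts and 22 with at least 10 counts in every library, 29 with the replicate block and 15 with a block for each number within a cell line (an alternative chosen after seeing the data), and 22 to 53 without a library: 23 without HEK UL1 KO CN replicate 2, 26 without HEK WT NO replicate 1 and 22 without HEK UL1 KO NO replicate 1. The causes were not tested.

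The replicate block changed the calls from 10298 to 8488. Same-numbered CN libraries of the genotypes did not deviate together (r = -0.0396, -0.123 and -0.287), nor did same-numbered CN and NO libraries of HEK WT (-0.0992, -0.376 and -0.504) or HEK UL1 KO (-0.0679, -0.289 and -0.301), so the numbers were not taken as pairs. Between CN and NO libraries of different numbers r ran from -0.222 to 0.449 in HEK WT. In HEK UL1 KO it ran from 0.00313 to 0.309. The highest values were those of CN 3 with NO 2 in HEK WT and CN 2 with NO 3 in HEK UL1 KO. The main fit to all 12 libraries does not model such relations. Of the genes named in the text, these log2 fold changes changed sign: under the scaling that follows the level RPS15 (0.103), SNORD3A (0.038), RN7SL1 (0.198), PTPN14 (0.051), CDH2 (0.239), H1-4 (0.235), NCL (0.141), CHEK1 (0.152), MDM2 (0.297, adjusted p = 0.0191 in limma), HSPA5 (0.103), HNRNPA1 (0.036), RRP1B (0.045) and PCNA (0.024); with total counts CDH2 (0.048), H1-4 (0.098), CHEK1 (0.015) and MDM2 (0.106); with at least 10 counts in every library H1-4 (0.053) and MDM2 (0.057). HNRNPUL2 was at 0 with DESeq2. Without a library RN7SL1 ranged from -0.338 to 0.158, CDH2 from -0.19 to 0.163, H1-4 from -0.113 to 0.084 and MDM2 from -0.097 to 0.119. Of these genes PTPN14, HSPA5, HNRNPA1, RRP1B and PCNA had been called. Depth limits the genes of the lowest levels most: a filter of 10 counts in every library gave 22016 genes tested in place of 27287, and 4 antiviral rises in place of 14.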
